A study of Mus musculus with 16 samples.

Results

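The CpGs described here lay at opposite extremes among the MEF-1 clonal lines: at least 1 line was at 10% methylation or less and at least 1 other at 90% or more, while the parental culture was in between. They were chosen by these measured levels. A CpG was taken when its MEF-1 parental level was 10 to 90%, when the 7 clonal lines reached both extremes, and when the parental levels of MEF-1 and MEF-2 were not both 40 to 60%. The rule found 4620 CpGs among 1203687 in the table of the series, or 0.384% of all CpGs. The number depended on depth and limits: it was 2293 with at least 20 calls in all 8 MEF-1 libraries, 1556 with extremes at 5 and 95%, 14354 at 20 and 80%, and 15357 after every library was thinned to 10 calls a CpG, with 3762 of the 4620 among the last. They made up 1.3% of the 354110 CpGs that met the parental part of the rule, and the other 349490 serve below as comparison CpGs.

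MEF-1 and MEF-2 are cultures of mouse embryonic fibroblasts from C57BL/6J embryos at E13.5, immortalised by passage through crisis, with no engineered allele or treatment. Single cells sorted from each parental culture were grown into 7 clonal lines, so that each line descends from 1 cell and was read as a population. The 16 libraries were made by target capture bisulfite sequencing (tcBS-seq), in which unmethylated cytosine is read as T. The methylation level is the percentage of methylated calls among all calls at a CpG in a library. Every parental culture and every line was sequenced as 1 library, and the lines of a family are its replicates. Coverage of chromosome 18, relative to the median of the MEF-2 lines, was 0.529, 0.504 and 0.525 in MEF-1 lines 1, 4 and 5. It was 0.934 to 1.025 in MEF-1 lines 2, 3, 6 and 7, and 0.722 in the MEF-1 parental culture. Whether some lines of a family share a more recent ancestor cell than others is not given in the sources used here and was not tested. The exact p-values below count the 7 lines as separate.

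Methylation of CpG cytosines is copied to the new DNA strand after replication by the maintenance methyltransferase, and can be lost where copying fails or gained through de novo methyltransferases. A diploid cell holds 2 copies of a CpG, so that a single founder cell can start a line with no copy, 1 copy or both copies methylated. A parental culture at an intermediate level can be a mixture of cells in such states or of cells that change state.

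All 16 libraries had at least 10 calls at each CpG, and the totals of calls per library ranged from 59243669 to 90633091. Of 6 fibroblast marker genes, 4 had measured promoter CpGs, and their mean MEF-1 parental levels ranged from 1.49% at Vim to 97.6% at Thy1. The 2 blood genes measured, Ptprc and Spi1, had means of 70.4% and 78.0%, and the endothelial gene Pecam1 had 81.1%. In the epithelial list Epcam was at 16.3% and Krt8 at 100%, so that promoter methylation did not separate the labelled cell type from all others. Lines 1, 4 and 5 stood together at the selected CpGs. The number of selected CpGs, the runs and the shifts of neighbours are given with and without them. So are the differences in CpG density, A or T context and promoter share. In MEF-2 the same holds for the distance from the parental level, the share at an extreme and the variance share. Other counts in MEF-2, and counts by gene, list and region, use all 7 lines. Reads carried no molecular identifiers, so calls are not independent molecules. A C-to-T base change would read like a lack of methylation, which was not tested.

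The sequences of 8 places carry the patterns described below: the 2 places where 3 successive measured CpGs were all selected, a pair of selected CpGs in the promoter of Tifa, and the 5 CpGs at which all 7 lines were extreme with 3 or 4 lines on each side. All are plus-strand RefSeq sequence of GRCm38.p6, 5′ to 3′, in lower case with the selected CpGs in capitals.
Run near Kctd3, chr1:189069003-189069121: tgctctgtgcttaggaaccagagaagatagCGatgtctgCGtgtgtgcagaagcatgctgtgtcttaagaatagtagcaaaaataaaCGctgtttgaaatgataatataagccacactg
Run in Platr2, chr13:65781337-65781433: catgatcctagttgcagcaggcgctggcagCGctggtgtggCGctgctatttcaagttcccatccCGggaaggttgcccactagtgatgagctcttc
Tifa promoter pair, chr3:127789414-127789496: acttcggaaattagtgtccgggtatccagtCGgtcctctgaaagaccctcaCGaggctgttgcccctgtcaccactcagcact
Upstream of Slc25a33, chr4:149797342-149797463: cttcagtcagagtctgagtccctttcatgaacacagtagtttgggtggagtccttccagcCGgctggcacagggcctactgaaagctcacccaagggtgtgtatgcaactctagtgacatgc
Wwox intron, chr8:114716965-114717086: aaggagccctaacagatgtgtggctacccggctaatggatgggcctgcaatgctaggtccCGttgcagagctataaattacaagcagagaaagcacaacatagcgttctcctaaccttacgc
Adam19 intron, chr11:46119763-46119884: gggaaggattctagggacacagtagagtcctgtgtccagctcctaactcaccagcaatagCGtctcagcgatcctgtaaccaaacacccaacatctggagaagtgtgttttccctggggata
Col23a1 intron, chr11:51290448-51290569: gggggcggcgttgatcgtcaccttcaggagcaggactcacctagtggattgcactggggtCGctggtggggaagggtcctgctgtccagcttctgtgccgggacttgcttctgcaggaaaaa
Adgrf5 intron, chr17:43391899-43392020: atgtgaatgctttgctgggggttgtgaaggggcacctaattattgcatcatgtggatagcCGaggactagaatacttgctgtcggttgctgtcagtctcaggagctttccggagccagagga

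The selected CpGs covered the whole permitted range of parental levels. The 5th, 25th, 50th, 75th and 95th percentiles of the MEF-1 parental level were 13.8, 28.6, 49.2, 69.2 and 85.2%, and the comparison CpGs had a median of 50%. Middle levels did not hold the highest share: the share selected was 1.88% at parental levels of 20 to 30% and 1.72% at 70 to 80%, against 1.25% at 50 to 60%. It was lowest at the edges, with 0.879% at 10 to 20% and 0.923% at 80 to 90%. A further 346 CpGs at opposite extremes were left out because both parental cultures were at 40 to 60%, and 355 and 301 because the parental level was under 10% or over 90%.

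The gap between lines was close to the full scale. The median of the lowest line was 4.55% and that of the highest 96.4%, and 505 CpGs (10.9%) had 1 line at exactly 0% and 1 at exactly 100%. The median range over the 7 lines was 91.8 points at selected CpGs and 38.0 points at comparison CpGs, a difference that the rule itself sets. At the threshold, 783 selected CpGs had a lowest line within 2 points under 10% (median 9.09%), and 632 CpGs missed selection with a lowest line within 2 points above it (median 11.1%). At the upper limit 697 lay just inside (median 90.9%) and 587 just outside (median 88.9%).

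Most of the selected CpGs had few extreme lines. At 2121 of 4620 CpGs (45.9%) exactly 1 line was low and exactly 1 high, with a median parental level of 50%. All 7 lines were at an extreme at 38 CpGs (0.823%). Of the 18545 line levels that lay between the extremes, 33.6% were at 40 to 60% and 43.0% at 20 to 40% or 60 to 80%.

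The balance of low and high lines followed the parental level. The 1293 CpGs with more low than high lines had a median parental level of 27.3%, the 2244 with equal numbers 50%, and the 1083 with more high than low lines 73.3%. The 24 CpGs with 6 lines low and 1 high had a median parental level of 15.96%, and the 9 with 1 low and 6 high a median of 80%. The mean of the 7 lines was within 10 points of the parental level at 43.7% of selected CpGs. As the parental level was part of the rule, these are descriptions with no test.

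The 7 lines contributed unequally. Line 6 was the only low line at 777 CpGs and the only high line at 715, the highest number for each. Line 2 was the only low line at 700 CpGs and the only high line at 612, and line 7 at 453 and 653. Line 4 was alone at 195 and 196 CpGs. The share of selected CpGs at which a line lay between the extremes ranged from 50.4% in line 6 to 67.5% in line 4. The mean distance of a line from the parental level was 17.5 points in line 4, 18.4 in line 5 and 20.04 in line 1, against 30.3 in line 6, 33.9 in line 3, 35.4 in line 7 and 36.1 in line 2. At comparison CpGs the same distances were 13.4 to 16.1 points. Coverage of some chromosomes also differed in single lines. Relative to the MEF-2 lines it was, for example, 0.763 on chromosome 16 in line 6, 1.378 on chromosome 5 in line 7 and 1.243 on chromosome 15 in line 5. Whether copy number differs there, and its part in these counts, was not tested.

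Pairs of lines differed in how often they shared a state. The rule asks for a low and a high line at every selected CpG, which lowers these shares, so they are a description. Where both lines of a pair were at an extreme, lines 1 and 4 were in the same state at 98.3% of 745 CpGs, lines 1 and 5 at 96.6% of 795, and lines 4 and 5 at 98.5% of 716. Lines 2, 3 and 7 shared a state less often, at 57.5 to 67.6%. Line 6 shared the state of lines 1, 4 and 5 at 44.6 to 47.9% and that of lines 2, 3 and 7 at 18.2 to 19.8%. The remaining pairs were at 23.0 to 26.8%. At comparison CpGs the mean difference in level was 12.6 to 13.3 points for the 3 pairs among lines 1, 4 and 5, 13.8 to 14.5 points among lines 2, 3 and 7, and 16 to 17.2 points for all other pairs.

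**Figure D1:**
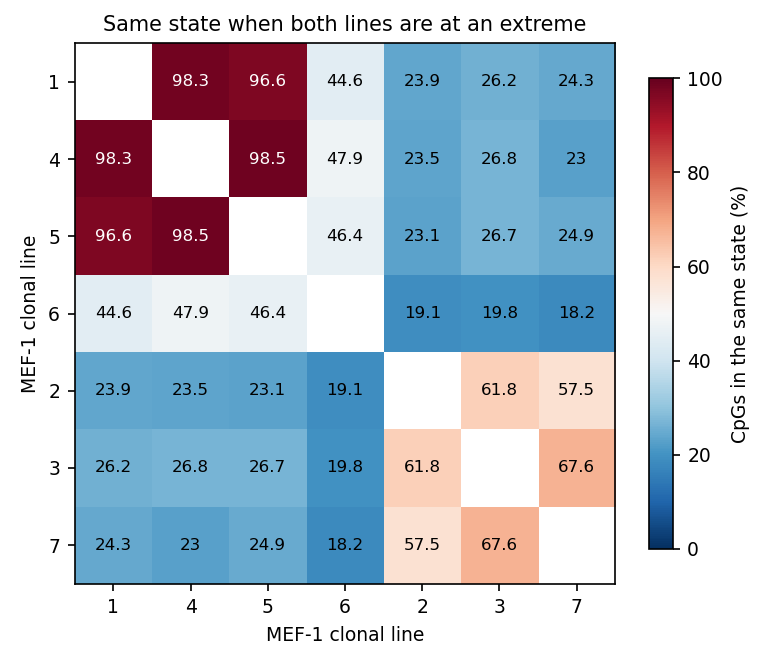
Percentage of CpGs in the same state, low or high, among the selected CpGs where both lines of a pair were at an extreme, for each pair of the 7 MEF-1 clonal lines (both axes, in the order 1, 4, 5, 6, 2, 3, 7). The 3 pairs among lines 1, 4 and 5 stand at 96.6 to 98.5%, the pairs among lines 2, 3 and 7 at 57.5 to 67.6%, and line 6 lies under 20% with each of lines 2, 3 and 7.

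Lines 1, 4 and 5 lay closest to the parental culture. They were all low at 179 CpGs, where the median parental level was 18.8%, and all high at 267, where it was 79.2%. Lines 2, 3 and 7 were all low at 174 CpGs and all high at 134, with median parental levels of 44.3% and 45.5%. Lines 2, 3, 6 and 7 alone held both extremes at 2362 selected CpGs (51.1%), and lines 1, 4 and 5 alone at 48 (1.04%). The other 2210 needed a line from each set.

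The 38 CpGs with all lines extreme showed 9 patterns. At 33 of these CpGs 1 line stood against the other 6: line 6 at 15 CpGs, line 2 at 8, line 7 at 7 and line 3 at 3. Lines 1, 4 and 5 never stood alone at these CpGs. The other 5 had 4 lines low and 3 high, which is fewer than the 8 that were to be named.

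Lines 2, 3 and 7 were the high lines at 4 of these 5 CpGs. At chr8:114717025, in an intron of Wwox, a gene that spans a common fragile site, the MEF-1 levels were 14.0% in the parental culture and 10, 98.0, 90.7, 3.85, 4.88, 3.57 and 97.7% in lines 1 to 7. The CpG 43 bp downstream was at 96.5 to 100% in all 8 MEF-1 libraries, and the one 32 bp upstream at 0 to 28.1%. The CpG in an intron of Adgrf5, an adhesion receptor gene, read 28% in the parental culture and 0, 98.0, 95.7, 7.84, 9.62, 5.46 and 95% in lines 1 to 7. The CpG in an intron of Adam19, a membrane metalloprotease gene, read 26.7% in the parental culture and 0, 95, 100, 0, 3.45, 0 and 92.9%. The CpG 23125 bp from the nearest start, that of the mitochondrial carrier gene Slc25a33, read 14.3% and then 3.13, 93.6, 100, 4.17, 5.26, 0 and 90%.

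The fifth had the reverse pattern. At chr11:51290508, in an intron of the collagen gene Col23a1 588 bp from its start, the parental culture was at 44.6% and lines 1 to 7 at 100, 5.88, 0, 97.4, 97.2, 3.08 and 8.33%. Lines 1, 4 and 5 were high there and the other 4 low. The 8 MEF-2 libraries were at 0 to 2.44% at the same CpG, while at the Adgrf5 CpG they were at 83.7 to 97.01%.

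**Figure D2:**
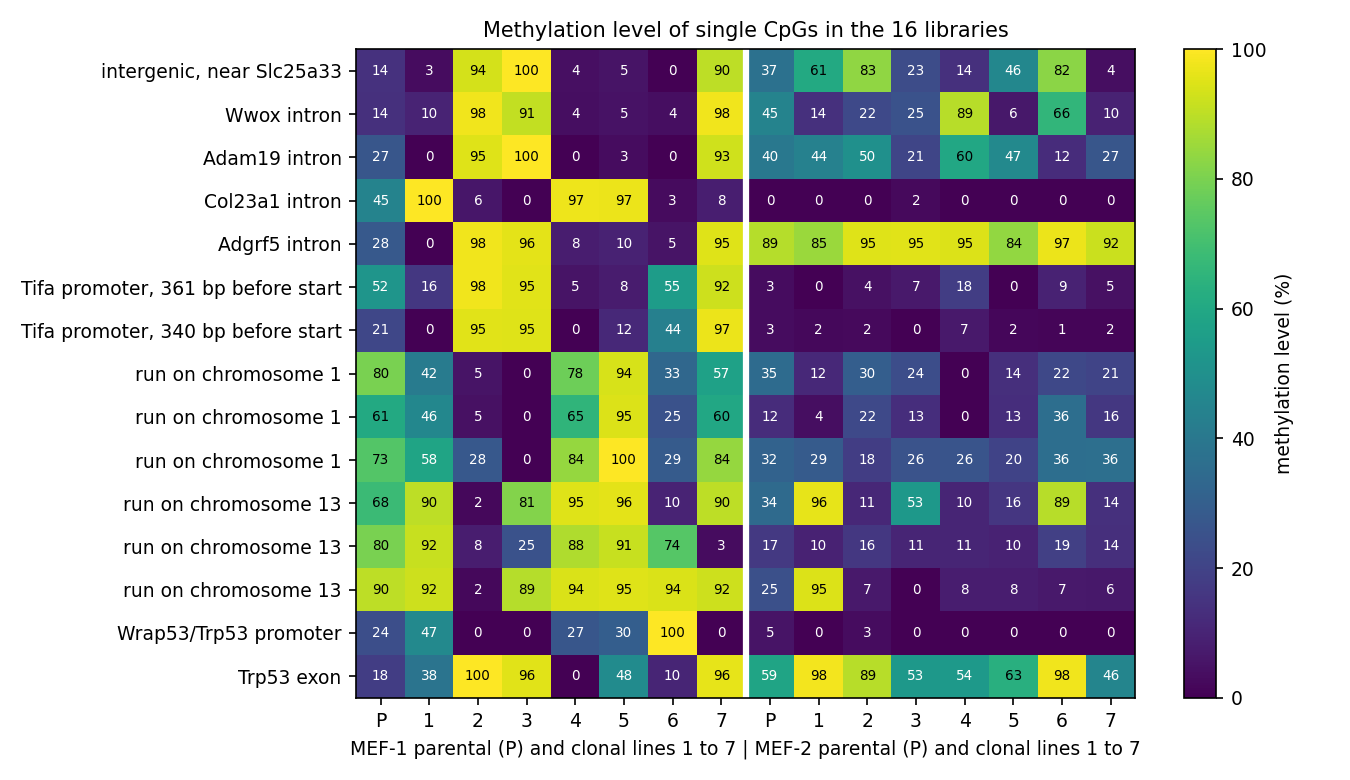
Methylation level (%) of single selected CpGs (rows) in the 16 libraries (columns: parental culture P and lines 1 to 7 of MEF-1, then of MEF-2), with the 5 CpGs extreme in all 7 MEF-1 lines at the top, then the Tifa pair, both runs of 3 and the 2 CpGs assigned to Trp53. Lines 2, 3 and 7 are high and lines 1, 4, 5 and 6 low at 4 of the top 5 rows, and the Col23a1 row is at 0 to 2.44% throughout MEF-2.

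Selected CpGs lay mostly alone. With gaps of at most 200 bp between successive measured CpGs, 4518 stood singly, 48 pairs were found and 2 runs of 3, so that 102 (2.21%) were in a pair or run. The median distance within a pair was 9 bp. In the pairs 90 line states were extreme at both CpGs, 71 of them in the same state, and 13 pairs held a line that was low at one CpG and high at the other. Among the 2362 CpGs chosen without lines 1, 4 and 5 there were 0 runs of 3.

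In the run near Kctd3, which lies 61192 bp from the nearest start and in no transcript, line 3 was at 0% at all 3 CpGs and line 5 at 93.8, 94.7 and 100%. In the run on chromosome 13, inside an intron of the lincRNA Platr2, line 2 was low at all 3 CpGs (2.17, 8.16 and 2.08%). Line 7 was there at 90, 3.45 and 92.3%, so that CpGs 11 and 24 bp apart had opposite states in the same line. The 3 measured CpGs just downstream of this run were at 80.6 to 100% in all 8 MEF-1 libraries.

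The 4 pairs with the widest span included split states over longer distances. In the pair near Pif1, 128 bp apart, lines 1, 4 and 5 were at 3.33, 7.69 and 5.71% at one CpG and at 100% at the other, while line 3 was at 100% and then 0%. In the pair near Nlrp3, an inflammasome gene, line 6 was at 9.16% at one CpG and at 93.9% at the other, 172 bp away. The other 2 pairs lay in an intron of Rnf130 and 112718 bp from the start of Gap43.

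At 32 CpGs 3 lines were low and 3 high. The 2 most deeply read of them, chosen after their values were seen, lay between genes. At chr13:66576191, with at least 149 calls a library, the parental culture was at 87.2% and lines 1 to 7 at 97.2, 3.70, 4.79, 95.3, 96.1, 88.6 and 4.02%. At chr6:50626207, in an exon of the processed pseudogene Gm8039 with at least 112 calls, it was at 84.4% and the lines at 97.3, 1.16, 1.25, 90.9, 94.2, 88.1 and 3.76%. Lines 2, 3 and 7 were low at both, where the other 4 lay near the parental level. Reads from a pseudogene can share sequence with its parent gene, so its level is uncertain.

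The Tifa pair, chosen after its values were seen, lay 361 and 340 bp before the start of Tifa, an adaptor of innate immune signalling. At the CpG farther from the start the parental culture was at 52.2% and lines 1 to 7 at 16.1, 97.7, 95.4, 5.41, 7.55, 55.4 and 92.3%. At the nearer one, 21 bp on, it was at 21.3% and the lines at 0, 95.4, 95.2, 0, 11.5, 43.7 and 97.2%. Lines 2, 3 and 7 were high at both. The CpG 12 bp before the pair was at 42.9 to 67.4% in all 7 lines, and all 8 MEF-2 libraries were at 0 to 18% at the pair.

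The levels of neighbours did not choose the CpGs, but neighbours that met the rule themselves were left out, which uses their own levels. Up to 200 bp the unselected neighbours shifted in the direction of the selected CpG in the same line. At such distances the same fragments can cover both CpGs. The main distance was therefore 500 to 1000 bp, where the shift was not past the threshold. Per line, the level of neighbouring CpGs that were not selected was taken as a deviation from the mean of the other 6 lines, and compared where the line was high at the selected CpG with where it was low. At 2 to 50 bp the shift was 8.03 ± 1.03 points (SD, n = 7 lines), above 0 in 7 of 7 lines (exact test over all sign flips, two-sided, p = 0.0156, the lowest value 7 lines allow; Benjamini-Hochberg p = 0.026 over 5 distances). The selected CpGs themselves differed by 89.8 to 91.8 points in plain level between the same states, a gap that the rule sets. In plain level these neighbours differed least in line 7, at 53.3% where it was high and 48.3% where it was low. They differed most in line 5, at 62.9% and 44.5%. The shift was 2.39 ± 0.267 points at 51 to 200 bp and 1.22 ± 0.334 from there to 500 bp, each above 0 in 7 of 7 lines with the same exact p-values. With selected neighbours kept as well, the shifts at these distances were 8.76, 2.45 and 1.35 points. Taken as a deviation from the MEF-1 parental level instead, the shift from 200 to 500 bp was 0.688 points, above 0 in 5 of 7 lines (exact sign-flip p = 0.0625), and past the threshold no longer.

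Beyond 500 bp the shift was under 1 point. From 500 to 1000 bp, the main distance, which fragments of about 200 bp seldom span, it was 0.472 ± 0.567 points. This was above 0 in 6 of 7 lines (exact sign-flip p = 0.0781, which is also the adjusted value). It was 0.85 points with at least 20 reads in all 8 MEF-1 libraries and 0.539 points with all measured neighbours (exact sign-flip p = 0.0156 for each). As a deviation from the parental level it was 0.230 points (exact sign-flip p = 0.125). From 1000 to 5000 bp it was 0.184 ± 0.136 points, above 0 in 6 of 7 lines (exact sign-flip p = 0.0313, adjusted p = 0.0391). The last call was lost in 8 of 12 alternatives: it was 0.0449 points (exact p = 0.609) as a deviation from the parental level, and 0.151 to 0.198 points when any 1 line other than line 6 was left out. In the latter 5 of 6 lines were above 0, and with 1 of 6 lines below 0 an exact sign-flip p cannot fall under 0.0625. Those losses therefore say little about the shift. Without lines 1, 4 and 5 the shifts at the 5 distances were 7.36, 2.04, 0.883, -0.0102 and 0.0853 points, and 4 lines cannot give an exact p below 0.125. The lines are not independent, since each deviation uses the others.

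**Figure D3:**
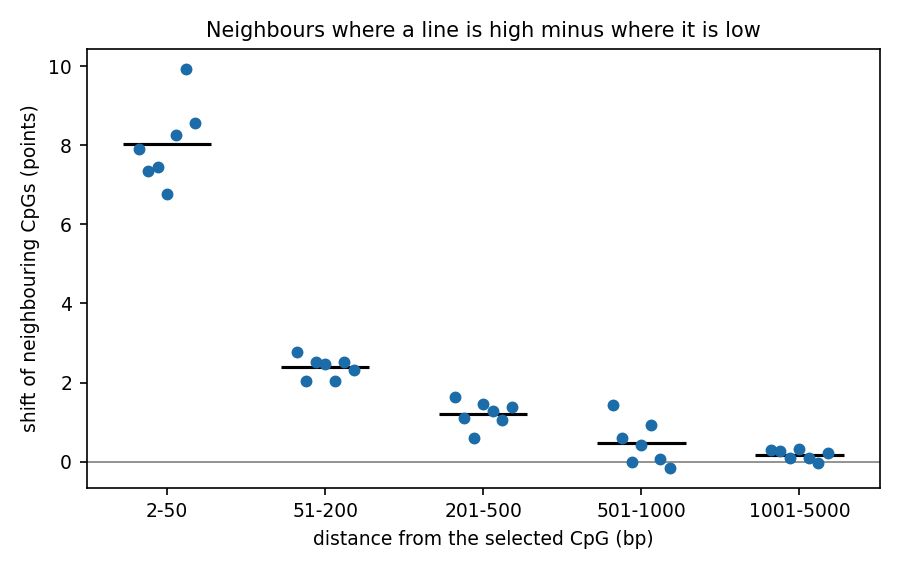
Shift of unselected neighbouring CpGs (percentage points, vertical axis) by distance from the selected CpG (bp, horizontal axis), each point 1 of the 7 MEF-1 clonal lines and each bar their mean. All 7 lines lie between 6.77 and 9.92 points at 2 to 50 bp and between -0.154 and 1.43 points from 500 to 1000 bp.

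Within 50 bp the nearest measured CpG was itself selected more often next to a selected CpG than next to a comparison CpG. It was selected there for 73 of 3348 selected CpGs (2.18%) and for 0.686% of comparison CpGs. At 51 to 200 bp it was selected for 5 of 1018 (0.491%) and 0.704%, too few to read a direction. From there to 1000 bp the numbers were small as well, with 3 of 156 (1.92%) and 0.653%. All 3 use the levels of the rule and are descriptions.

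Selected CpGs lay in CpG-poorer sequence than comparison CpGs. The mean number of other CpGs within 100 bp was 4.38 against 4.91, lower on 16 of 16 chromosomes, and 7.00 over all CpGs of the table. Among CpGs chosen without lines 1, 4 and 5 the difference was -0.515 in place of -0.534, lower on 14 of 16. With at least 20 reads in all 8 MEF-1 libraries the means were 3.72 and 4.19, lower on 14 of 16, with a median of 3 in both sets. With extremes at 5 and 95% they were 4.39 and 4.91, lower on 13 of 16. The share selected was 1.41% with no other CpG within 100 bp and 1.04% with 11 or more. CpGs with A or T on both sides made up 27.0% of the selected and 24.7% of the comparison CpGs, higher on 13 of 16 chromosomes. With extremes at 5 and 95% this difference was 0.668 points in place of 2.32, higher on 9 of 16, and without lines 1, 4 and 5 it was 1.49 points, higher on 10 of 16. Among the 16 four-base contexts, ACGT held 9.07% against 7.53% (higher on 15 of 16 chromosomes) and GCGC 4.00% against 5.41% (higher on 2). The other contexts with A or T on both sides differed less. ACGA held 6.28% against 5.87%, TCGT 6.71% against 6.15%, and TCGA went the other way with 4.98% against 5.17%. CpGs are not replicates, so these carry no test.

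By location, 481 selected CpGs (10.4%) lay in promoters, taken as 1000 bp before a start of a protein-coding gene, 578 (12.5%) in exons, 1677 (36.3%) in introns and 1884 (40.8%) between genes. Comparison CpGs had 12.6% in promoters, 13.05% in exons, 35.1% in introns and 39.3% between genes. All CpGs of the table had 22.3, 15.4, 33.2 and 29.1%. The promoter share was lower than that of comparison CpGs on 13 of 16 chromosomes, with a difference of -2.20 points in all, and with extremes at 5 and 95% it differed by -0.723 points and was lower on 9. Without lines 1, 4 and 5 the difference was -1.14 points, lower on 10. The median distance to the nearest start was 8672 bp, against 7478 bp for comparison CpGs. The share selected ranged from 1.10% on chromosome 15 to 1.495% on chromosome 11. It fell with depth, from 1.65% where the lowest of the 8 MEF-1 libraries had 10 to 14 calls to 1.11% at 30 or more.

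The selected CpGs were spread over many genes. Of 15422 protein-coding genes with a measured CpG, 2215 held at least 1 in the promoter or transcript: 1762 held 1, 335 held 2 and 118 held 3 or more. The highest numbers came from the long readthrough model Gm20388 (30 of 7597 measured CpGs) and from Fgfr2, a growth factor receptor gene whose longest annotated transcript reaches over several neighbours (14 of 2675). These are 0.395% and 0.523% of their measured CpGs, beside 0.384% over all CpGs, so the number in Gm20388 is near the background. Asic2, which encodes an acid-sensing ion channel, held 8 of 401, all in introns.

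The other 9 of the 12 genes with most selected CpGs held 6 each. These were 0.753% (Gse1) to 2.31% (Nmnat2) of their measured CpGs, beside 0.384% over all CpGs. As the genes were picked from the top of a ranking, their shares are a description. Among the 9 were the NAD synthesis gene Nmnat2 (of 260 measured), the splicing regulator Rbfox1 (of 288), the cell adhesion gene Cadm1 (of 306) and the postsynaptic scaffold gene Dlgap1 (of 411). Zfp536, a zinc finger repressor gene, held its 6 among 275 measured, Stox2 among 349, Nav2 among 639 and Gse1 among 797. Runx1, a blood transcription factor, held 6 of 405, of which 3 lay within 500 bp of one another in an intron. At these 3 line 7 was at 9.38, 4 and 0% and line 4 at 100, 93.3 and 93.8%.

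By share, among genes with 20 or more measured CpGs, Tmem102 led with 5 of 29, followed by Ccdc3 (2 of 20), Insc (3 of 36), Ikzf4 (2 of 25), Ahrr (3 of 38), 1700021F05Rik and Stau2 (2 of 26 each) and A630001G21Rik (3 of 40). The share over all CpGs was 0.384%. These genes head a ranking, and all but Tmem102 rest on 2 or 3 selected CpGs. Some were thinly read, with as few as 10 calls in a library at a CpG of Insc. Nothing particular to a gene can be read from these shares. Ahrr encodes a repressor of the aryl hydrocarbon receptor and Ikzf4 a zinc finger factor of lymphocytes. In the promoter of Ikzf4, line 6 was at 100% and lines 1 to 5 and 7 at 6.67 to 45.5%.

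Of 18 gene lists, the share selected among CpGs that met the parental part of the rule ranged from 0 of 175 (ubiquitin and proteasome subunit genes) to 11 of 521 (ribosomal protein genes, 2.11%), beside 1.3% over all. Fibroblast and matrix genes held 2 of 411 (0.487%), in introns of the collagen genes Col5a2 and Col15a1. Imprinted genes held 7 of 1290 (0.543%), 3 of them in Usp29, Hox genes 7 of 1056 (0.663%) and Wnt pathway genes 7 of 980 (0.714%), which include the inhibitor Dkk2 and the factor Tcf7. Pluripotency genes held 4 of 419, with 1 each in Dppa2, Lin28a and Lin28b. With so few CpGs a list, and with transcripts that overlap, nothing particular to a list can be read from these shares.

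Voltage-gated ion channel genes held 33 of 2429 (1.36%), led by the calcium channel gene Cacna1a with 5 and the sodium channel gene Scn8a with 3. Neurotransmitter receptor genes held 27 of 1689 (1.60%), with 4 in the glutamate receptor gene Grik4 and 3 in Grin2c. Endoderm and blood transcription factors held 22 of 1390 (1.58%), with 6 in Runx1 and 2 each in Foxa2 and Foxa3. Neural and sensory transcription factors held 25 of 2380 (1.05%), T-box and limb patterning genes 17 of 1189 (1.43%), zinc finger genes 36 of 3417 (1.05%) and genes of the BMP, TGF-beta and FGF pathways 18 of 1485 (1.21%), 14 of the last from Fgfr2. These 14 lay in the long Fgfr2 transcript, each nearest to the start of another gene, and this transcript also gave 749 of the 1485. Muscle regulators held 10 of 573 (1.75%, 3 in the calcium release channel gene Ryr2) and germline genes 7 of 435 (1.61%, 2 in the piRNA pathway gene Piwil2).

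Single genes showed graded and split patterns. The 3 selected CpGs of Lhx6, a homeobox gene of interneurons, lay in coding sequence that is also promoter of a shorter transcript. Line 3 was at 100% at all 3 and line 1 at 3.03 to 7.69%. In En1, a homeobox gene of limb and brain patterning, a CpG in the intron was at 94.2% in line 6 and at 0 to 5.41% in the other 6 lines, while the CpG 12 bp before it was at 98.0% in line 2 and 33.3% in line 6. DNA methylation machinery genes held 5 of 274 (1.82%), among them 1 exonic CpG of the demethylase gene Tet3, at 92.6% in line 2 and 5.56% in line 1. Senescence and immortalisation genes held 4 of 359 (1.11%): 2 assigned to Trp53, 1 in the UTR of the cell cycle inhibitor Cdkn1b and 1 in an intron of Cdk6.

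Both CpGs assigned to Trp53 lay in a stretch that stood apart in coverage. This was noticed after values were seen and is a description. In windows of 50 kb with at least 10 CpGs, 14 of 20413 had a relative coverage under 0.7 in all 8 MEF-1 libraries, set against the MEF-2 lines, and the reverse held for 0. They formed 2 segments, chr11:69511271-69884053 and chr17:46702693-46995389. Relative coverage in the 8 MEF-1 libraries was 0.498 to 0.553 in the first and 0.444 to 0.562 in the second, and in the MEF-2 parental library 1.03 and 1.04.

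Selected CpGs were dense in both segments. They numbered 20 of 127 CpGs that met the parental part of the rule on chromosome 11 (15.7%) and 15 of 63 on chromosome 17 (23.8%), against 1.30% elsewhere. Within 1 Mb outside the segments the shares were 1.87% and 1.89%. The median of the lowest library was 13 calls inside and 21 elsewhere, and the share among CpGs elsewhere with 10 to 14 calls was 1.62%. The part of depth in these shares was not tested. Whether the segments are single copies in MEF-1 was not tested.

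Levels inside the segments avoided the middle. Over the 7 lines, 69.5% of line levels were at an extreme and 4.81% at 40 to 60%, against 34.2% and 27.2% elsewhere, in the same direction in each of the 7 lines. The MEF-1 parental culture too was less often at 40 to 60%, at 10% of CpGs that met the parental part of the rule, against 23.4% elsewhere. Its median level there was 34.75%, against 50%. The median range over the 7 lines was 25.8 points inside and 38.35 points elsewhere. Of the 190 CpGs in the segments that met the parental part of the rule, 117 also had a parental level of 10 to 90% in MEF-2. At the 117, 35.4% of the MEF-2 line levels were extreme and 32.6% at 40 to 60%, against 35.6% and 24.4% at the 236137 such CpGs elsewhere. Of the 117, 4 (3.42%) were at opposite extremes among MEF-2 lines, against 3.51%.

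**Figure D4:**
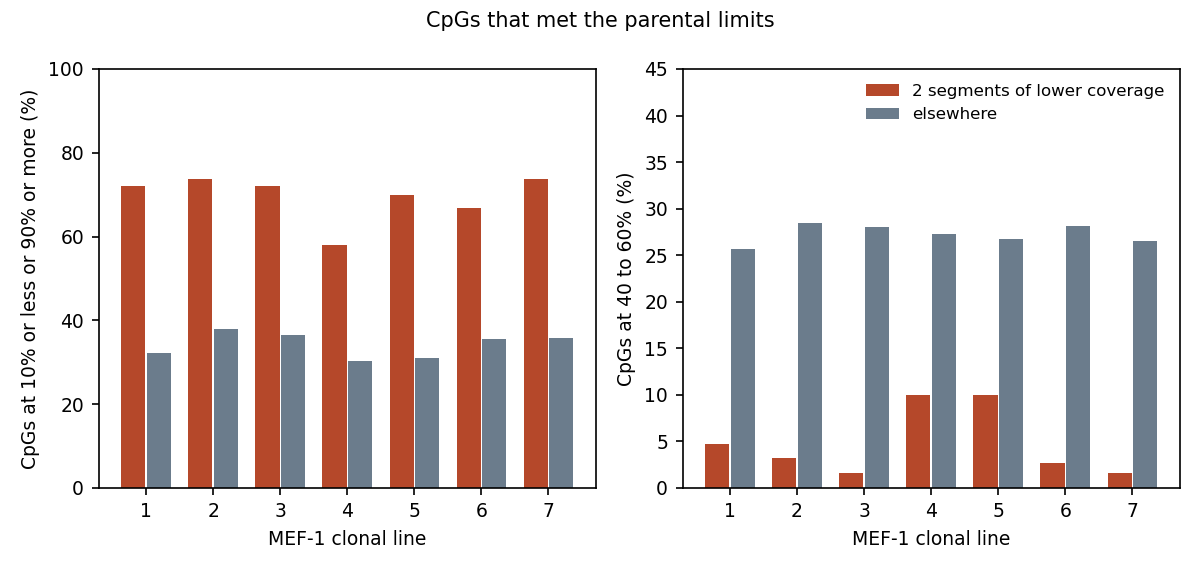
Percentage of CpGs at 10% or less or 90% or more (left) and at 40 to 60% (right) in each of the 7 MEF-1 clonal lines, among CpGs that met the parental part of the rule, inside both segments of lower coverage and elsewhere. Inside, 57.9 to 73.7% are at an extreme and 1.58 to 10% at 40 to 60%, in each line on the same side of the values elsewhere.

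The genes of the segment on chromosome 11 included Trp53, a tumour suppressor gene often inactivated in immortalised mouse fibroblasts, Efnb3, Chrnb1, Zbtb4 and Tmem102. At chr11:69589413, in an exon of Trp53, the parental culture was at 18.2% and lines 1 to 7 at 38.5, 100, 95.7, 0, 48.3, 10.3 and 96.3%. At chr11:69580085, in the promoter of Trp53 and an intron of Wrap53, it was at 24% and the lines at 47.1, 0, 0, 26.7, 30, 100 and 0%. Line 6 alone was high there. All 5 selected CpGs of Tmem102 and 4 near the start of Efnb3, an ephrin gene, lay in this segment.

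On chromosome 17 the segment held Bicral, Gnmt, Ppp2r5d, Pex6, Rpl7l1 and Ubr2. In the promoter of Bicral, a chromatin remodelling gene, chr17:46859216 was at 43.3% in the parental culture and at 8.33, 73.0, 93.6, 0, 0, 2.04 and 90.2% in lines 1 to 7. Of the 11 selected CpGs in ribosomal protein genes, the 2 of Rpl7l1 lay here. Without both segments 4585 selected CpGs remained.

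Windows of 1 Mb differed in their share as well. The highest of 1202 was chr13:65000001-66000000 with 39 of 558 (6.99%), 28 of them nearest to Gm10139, against a median of 1.23% over windows. Coverage there was 0.982 to 1.18 of the MEF-2 level, and of the 635 CpGs there that met the parental part of the corresponding MEF-2 rule, 72 (11.3%) were at opposite extremes among MEF-2 lines, beside 3.10% over all such CpGs. The windows with both segments followed on chromosome 17 (24 of 410) and chromosome 11 (25 of 537), with Rbfox1 on chromosome 16 between them (5 of 106).

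The MEF-2 lines had no part in choosing the CpGs and were used for tests. At 3743 selected CpGs with a MEF-2 parental level of 10 to 90%, a MEF-2 line lay 18.4 ± 0.355 points from its parental level (mean ± SD, n = 7 lines), and at 232511 comparison CpGs 17.2 ± 0.361 points. The difference of 1.16 ± 0.344 points was positive in each of the 7 lines (exact test over all sign flips, p = 0.0156, again the lowest value possible). The 7 differences share the same CpGs and the same MEF-2 parental library, and p does not cover error common to them. It was 0.790 points when comparison CpGs were weighted to the same MEF-2 parental levels, and 1.19 points at CpGs chosen without MEF-1 lines 1, 4 and 5.

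Extreme levels in MEF-2 were rarer at the selected CpGs, at 32.3 ± 2.14% of CpGs a line against 35.6 ± 2.01% (difference -3.35 ± 0.781 points, lower in 7 of 7 lines, exact sign-flip p = 0.0156). At CpGs chosen without MEF-1 lines 1, 4 and 5 the difference was -2.85 points. The 2 sets compared differed in MEF-2 parental level: 13.8% of the 3743 selected and 17.2% of the 232511 comparison CpGs were at 10 to 20% in the MEF-2 parental culture, and 10.7% and 14.1% at 80 to 90%. With comparison CpGs weighted to the same parental level the difference was -0.562 points (exact sign-flip p = 0.109), and within parental levels of 40 to 60% it was 1.29 points (exact p = 0.0781).

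Some CpGs were at opposite extremes in both families. Of the 3743 selected CpGs, 167 (4.46%) also had a MEF-2 line at each extreme. The share was 3.49% at comparison CpGs, and 3.10% over all CpGs that met the parental part of the corresponding MEF-2 rule. This difference was not tested. All 8 MEF-2 libraries were at 10% or less at 150 of the 4620 selected CpGs (3.25%) and at 90% or more at 173 (3.74%), against 7.94% and 7.97% of comparison CpGs. Of the variance possible at the mean level, the share between MEF-2 lines beyond read sampling was 0.181 ± 0.012 (SE from leaving out each line) at selected and 0.169 ± 0.012 at comparison CpGs. The difference was 0.0121 with an SE of 0.0031 over the same 7 lines, and 0.0104 to 0.014 with any 1 line left out. At CpGs chosen without MEF-1 lines 1, 4 and 5 the share was 0.185.

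**Figure D5:**
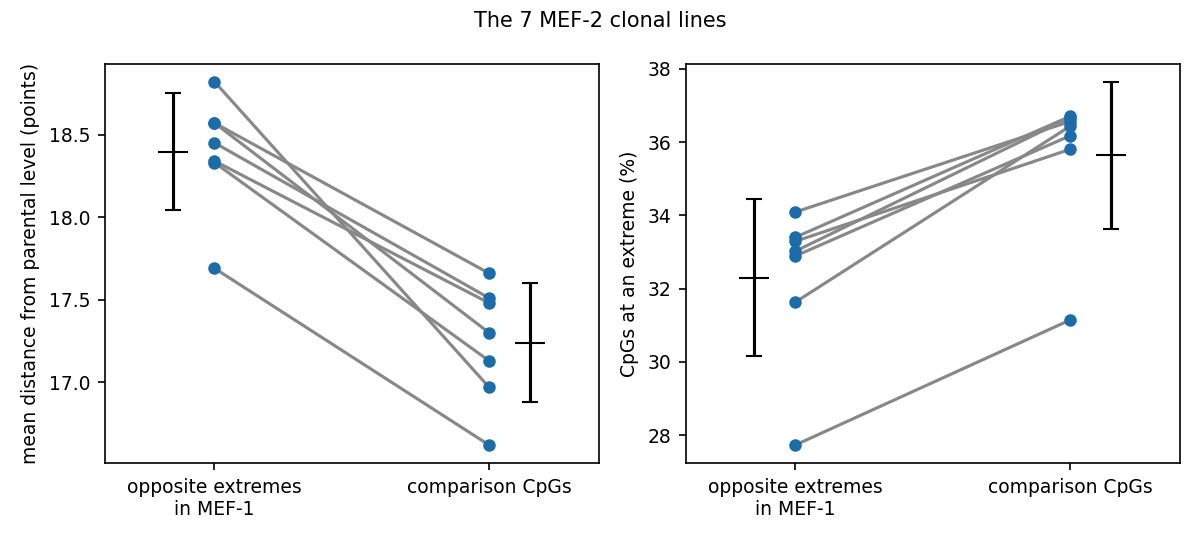
Mean distance from the MEF-2 parental level (left, percentage points) and percentage of CpGs at an extreme (right) in the 7 MEF-2 clonal lines, at CpGs selected in MEF-1 and at comparison CpGs, with 1 line joining the values of each library and bars for the mean and SD (vertical axes do not start at 0). All 7 lines lie higher on the left and lower on the right at the selected CpGs.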

How the data were processed

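DNA from 16 cultures was captured, bisulfite converted and sequenced. The authors used Trim Galore 0.6.0 for trimming, Bismark for alignment to mm10 and R 3.6.1, and left out reads whose mapping quality was under 10. Removal of PCR duplicates is not given in the sources used here. The deposited table of the series holds the authors' methylated and unmethylated read counts per CpG and library, which equal those of the 16 deposited library tables. These counts were used. The 2 other per-sample columns (coverage and percentage) and 3 score and density columns were not used. For chromosomes outside the 16 of this table only coverage was computed here, and methylation levels were not analysed.

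Levels were computed from the counts in Python 3.11.15 (numpy 2.4.6, pandas 2.3.3, matplotlib 3.10.9). CpGs were placed on GENCODE M21 genes and RefSeq GRCm38.p6 sequence. The members and gene lists were chosen with earlier results of these data known. MEF-1 levels at the selected CpGs chose them and are described without a test, while MEF-1 levels at unselected neighbours and MEF-2 levels were tested. Tests were two-sided exact sign-flip tests over 7 lines, each line compared with itself, at a threshold of 0.05; scripts were tested on simulated data.

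Named were the longest runs, the 12 genes with most selected CpGs, the 8 with the highest share among genes with at least 20 measured CpGs, up to 8 CpGs with all lines extreme and 3 or 4 on each side (5 exist), up to 3 genes a list, and genes a result turned on. Alternatives changed read minimum, limits, depth, parental level, lines and gaps.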

Additional observations from a re-analysis of the deposited data

Results flagged for a closer look

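In 15 groups of 7 line values, 2 held a line far from the others, where chance flags about 1 in 20 groups. The difference in distance from the parental level between selected and comparison CpGs was 1.858 points in MEF-2 line 2, above the 0.863 to 1.27 points of the other 6 lines. The percentage of selected CpGs at an extreme was 27.73% in MEF-2 line 3, below the 31.6 to 34.1% of the other 6, and the same line was also lowest at comparison CpGs, at 31.1%.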

How the results depend on the processing

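No paired analysis was possible between MEF-1 and MEF-2 because no test compares the families, while within a family each test paired 2 values of the same line. The number of selected CpGs was 2293 with at least 20 reads in all 8 MEF-1 libraries, 1556 with extremes at 5 and 95%, 14354 at 20 and 80%, 15357 after thinning to 10 reads, 2362 without lines 1, 4 and 5, and 3128 to 4229 when 1 line was left out. Counting 2 or more successive selected CpGs gave 50 places in place of 2, and leaving out lines 1, 4 and 5 gave 0. The difference in MEF-2 distance kept its direction and side of the threshold in 17 of 17 alternatives (1.044 to 1.209 with 1 line left out). The difference in MEF-2 extreme levels did so in 15 of 17 (-3.491 to -3.104 with 1 line left out); it was 1.288 at MEF-2 parental levels of 40 to 60% and -0.5621 with weighted comparison CpGs, an alternative chosen after seeing the data, as were leaving out both segments and, for all but the number of selected CpGs and the shifts, leaving out lines 1, 4 and 5. The variance share was 0.1957 at MEF-2 parental levels of 10 to 40%, 0.1663 at 40 to 60% and 0.176 to 0.1907 with 1 line left out. The shift from 500 to 1000 bp was 0.5386 with all neighbours and 0.85 with at least 20 reads, both past the threshold, 0.2298 as a deviation from the parental level, -0.01021 without lines 1, 4 and 5, and 0.3294 to 0.5668 with 1 line left out; the cause was not tested. From 1000 to 5000 bp it lost the threshold in 8 of 12 alternatives, mostly where lines were left out, which raises the lowest possible p.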
